A study of Arabidopsis thaliana with 8 samples.

Results

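In Arabidopsis mesophyll protoplasts given ORE1, a set of transcripts that were already well expressed without it stood higher still, and 151 of 22746 non-control probe sets on the array made up this set. ORE1 belongs to the NAC family of plant transcription factors, and leaf senescence is the process it is best known for. Members lay at log2 7 or more on both arrays of protoplasts labelled wild type (WT) and were higher by at least 1 on the log2 scale, which is 2-fold, with 35S:ORE1 in both same-numbered pairs of arrays. The members were thus selected on the protoplast arrays, and their protoplast values are given as a description without a test. Of 158 probe sets past these thresholds, 7 were left out by name (AT3G45010, ChiC, AT5G39520, AT1G80450, AT1G74010, AT2G31945 and SWEET2), while SWEET17, also named, did not reach the WT threshold. All 7 were higher with estradiol in both seedling pairs, so leaving them out lowers the seedling values of the set.

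Expression was measured on 8 Affymetrix arrays of 1 colour, 2 for each of 4 groups of Col-0 material. Mesophyll cell protoplasts came from 5-week-old plants, with treatment given as none, and were either sampled 6 h into transient expression of ORE1 from the 35S promoter, a strong constitutive promoter, or labelled WT, with no time and no mock transfection given in the sources used here. Whole seedlings, 2 weeks old, were of the ORE1-IOE line, in which estradiol induces ORE1, and were harvested 2 h after estradiol was added to 10 µM or after a mock treatment of 0.1% ethanol. Both seedling groups carry the same construct, and no estradiol-treated seedlings without it were analysed here, so effects of estradiol and of ORE1 cannot be told apart there, nor transfection and ORE1 in protoplasts. Whether replicates come from separate preparations is not in the labels, and p-values may then reflect nothing but technical spread. Each probe set has a level on the log2 scale, and the number of arrays limits the precision. Seedling arrays had medians of 6.71 to 6.79 and protoplast arrays far lower ones of 3.34 and 3.38 (WT) and 3.53 and 3.54 (35S:ORE1), so levels were compared between the systems only as percentiles. Of 12 mesophyll markers 4 had a listed probe set: RCA and LHCB4.1 lay at means of 9.40 and 8.16 in WT protoplasts, LHCB4.2 and PSAN were low at 4.38 and 3.14, and none of the 4 passed between the protoplast groups (-0.61 to -0.33). The guard cell gene FMA (FAMA) and the root hair genes EXPA7 and EXPA18 lay at 2.18, the level of an unexpressed probe set.

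Leaf senescence is a controlled breakdown in which the cell takes its own proteins, lipids and carbohydrates apart and exports the nutrients. Autophagy carries cytoplasm and parts of organelles to the vacuole, where proteases and other hydrolases act, and the ubiquitin system marks single proteins for the proteasome. Stress-protective proteins such as dehydrins and metallothioneins keep membranes and metals in check while the cell is dismantled.

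The members were moderately expressed genes that stood a few fold higher with 35S:ORE1. Their WT means ran from 7.07 to 13.90 with a median of 8.46, and 57 of them lay between 7 and 8. The mean difference ran from 1.04 to 3.56 with a median of 1.53, which is 2.88-fold, and it was under 1.5 for 74 members, 1.5 to 2 for 45, 2 to 3 for 26 and above 3 for 6. The differences in both pairs lay within 0.25 of each other for 95 members and more than 0.5 apart for 10. With each array centred on its median, which removes the higher medians of the 35S:ORE1 arrays, the members' median was 1.35 and 124 probe sets met the rule, 119 of them members. For none of the 151 did the WT and 35S:ORE1 arrays overlap, which the rule largely sets in advance, so nothing is read from it. In the fit over all probe sets, 127 of the 151 passed a limma adjusted p under 0.05 as higher, against 3.00% of all 17388 tested probe sets, and since the rule used this contrast nothing is read from that count. The members are 2.28% of the 6616 probe sets that reached log2 7 on both WT arrays. In bulk samples of this kind, more cells with a transcript and more transcript per cell cannot be told apart.

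**Figure D1:**
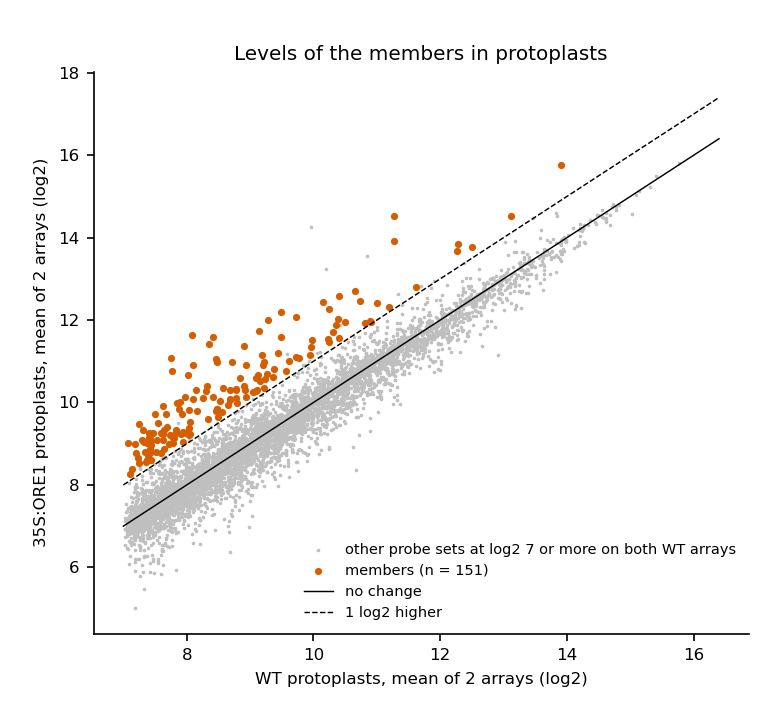
Mean log2 level of each probe set on the 2 WT arrays (x axis) and the 2 arrays with 35S:ORE1 (y axis), for probe sets at log2 7 or more on both WT arrays. The 151 members (orange) lie above the dashed line of a 1 log2 difference by construction, most of them at WT levels under 10. MT1C is the member farthest to the right at a WT mean of 13.90.

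The limits of the set are gradual. Just inside the threshold on the difference lay 260986_at with a smaller pair difference of 1.01, AT1G21370 with 1.02 and 263159_at with 1.02, and just outside lay 262482_at, 252927_at and 262919_at with 0.99 each. On the WT level, 253022_at (7.02), 261139_at (7.03) and 249095_at (7.06) were just inside, and AT3G15900 (a shade under 7), 266193_at (6.95) and 257232_at (6.95) just outside, each value being the lower of both WT arrays. Of the 151 members, 73 have 1 gene in the probe table, 3 have several and 75 are not listed there and are counted without a name. Roles below are given for 51 of the 73 genes as background, from general knowledge of these loci, and the grouping was made after the values had been seen. The other 22 are locus names for which no role is given.

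In seedlings, whose arrays took no part in choosing the members, estradiol was followed by small upward differences over most of the set, and no member passed the test. The median seedling change of the 151 members was 0.17 on the log2 scale, against 0.02 over all tested probe sets and 0.01 over the 6458 other probe sets expressed in WT protoplasts. It was 0.13 in pair 1 and 0.18 in pair 2, where all tested probe sets gave 0.02 and 0.02. A higher mean with estradiol was found for 114 members, or 75.5%, against 54.1% of all tested and 51.9% of the other expressed probe sets. The difference was upward in both pairs for 89 members (58.9%, against 34.3% of all tested) and downward in both for 22 (14.6%, against 27.2%). For 56 members, or 37.1%, both estradiol arrays lay above both mock arrays, against 18.6% of all tested probe sets, and for 11 members, or 7.28%, both lay below, against 13.9%. These shares carry no test of their own, since probe sets are not replicates.

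By limma no member passed in either direction at an adjusted p under 0.05 (lowest adjusted p 0.263), where the calls over all tested probe sets came to 0.00575% upward and 0.00% downward. Without adjustment, p was under 0.05 for 10 members upward (6.62%) and 4 downward (2.65%), against 343 and 375 of all 17388. The changes were small: 14 members were higher by 0.5 or more. Those higher by at least 1 were 249467_at, AT1G02470 and 255340_at, and those lower by at least 0.5 were AT3G23605, 246481_s_at and 257022_at. The middle 50% of the members lay between 0.00 and 0.33. Leaving out any 1 seedling array kept the members' median between 0.11 and 0.23, while that of all tested probe sets ran from 0.01 to 0.03. Putting the 7 left-out genes back gave a median of 0.18.

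**Figure D2:**
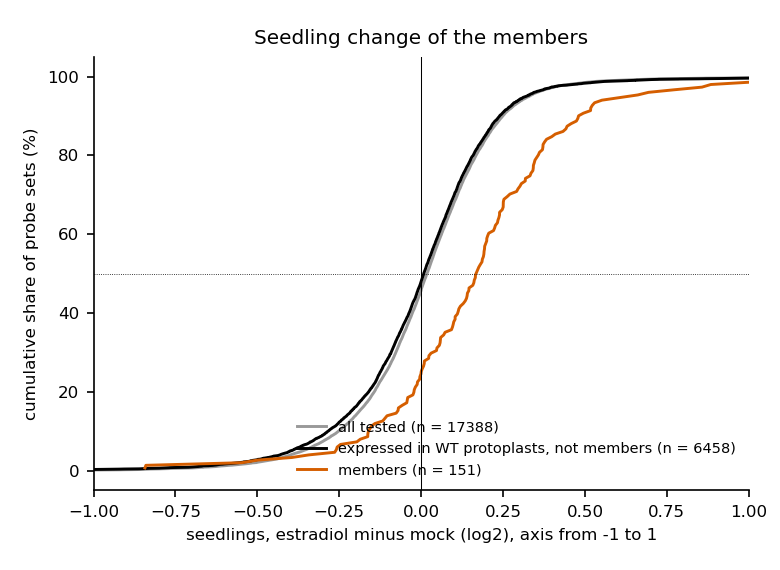
Cumulative share of probe sets (y axis, %) by seedling change, estradiol minus mock (x axis, log2), for the 151 members, the 6458 other probe sets expressed in WT protoplasts and all 17388 tested. The members' curve lies to the right, with a median of 0.17 against 0.01 and 0.02.

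The size of the protoplast difference did not order the seedling change. The 32 members with a protoplast difference of 2 or more had a seedling median of 0.17, with 23 of them higher, and the other 119 also had 0.17, with 91 higher. Across the 151 members, which share the same arrays and are not independent, Pearson's r between both changes was 0.18, and 0.01 without 249467_at. Other probe sets that moved in protoplasts were set beside the members. The 84 tested ones that lay within 0.1 of the lowest value in WT and were higher with 35S:ORE1 had a seedling median of 0.12 (66.7% with a higher mean). A further 279 tested ones, higher by at least 1 in both pairs, lay neither there nor at log2 7 or more on both WT arrays. Their seedling median was 0.09 (71.0% with a higher mean). The 85 expressed ones that were lower by at least 1 in both pairs had -0.08 (34 of 85 with a higher mean). The difference between these sets was not tested.

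Autophagy was represented by 3 members, all parts of the machinery that starts the process. AT3G61960 encodes ATG1a, the protein kinase of the initiation complex, and its values were 7.99 and 8.21 on the WT arrays and 9.82 and 10.37 with 35S:ORE1. Both pairs gave a step of similar size, a mean difference of 2.00 (3.99-fold). AT1G77890, which encodes ATG14a of the phosphatidylinositol 3-kinase complex that marks the growing membrane, went from 7.40 and 7.41 to 9.22 and 9.31 (3.63-fold). AT5G66930 encodes ATG101, a partner of the ATG1 kinase, and went from 8.35 and 8.61 to 9.49 and 10.17 (2.55-fold). In seedlings none of the 3 moved beyond its error, with changes of 0.17 ± 0.25, -0.04 ± 0.13 and 0.02 ± 0.25 (SE, n = 2 arrays per group), and the estradiol and mock arrays overlapped for each.

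A list of 40 autophagy genes had 10 that could be matched by symbol to a tested probe set, 9 of them for ATG8 proteins, the ubiquitin-like tags of the autophagic membrane. None of the 10 is a member: all lay above log2 7 on both WT arrays, and none reached a difference of 1 in both pairs. ATG8C was closest, with pair differences of 0.99 and 1.30. The 3 autophagy members are named by locus in the probe table and are not among the 10. ATG1A, the gene of the member AT3G61960, is on the list of 40 and was missed by the match on symbols. None of the 10 passed in protoplasts by limma (3.00% of all tested probe sets passed as higher and 0.771% as lower), though the mean was higher for 8, and the list's median was 0.39 against 0 over all tested probe sets. The nearest were ATG8C at 1.15 ± 0.24 (adjusted p = 0.0638), APG8H at 0.49 ± 0.12 (adjusted p = 0.115) and ATG8H at 0.66 ± 0.18 (adjusted p = 0.148). APG8H is the name in the probe table for the list entry ATG8I and is not ATG8H. ATG3, which encodes the enzyme that attaches ATG8 to lipid, differed by 0.39 ± 0.16 (adjusted p = 0.419). When the replicate number was fitted as a block, ATG8C did pass (limma adjusted p = 0.0224), as it did under 4 other alternatives, and over all alternatives its adjusted p ran from 0.0224 to 0.406.

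Proteases made up 4 members. The aspartic protease gene AT5G48430 lay at 9.59 and 8.86 in WT and at 10.80 and 11.17 with 35S:ORE1, and its pairs differed most among the proteases, at 1.21 and 2.31. APM1, an M1 aminopeptidase known from auxin transport and embryo growth, went from 10.11 and 10.59 to 11.84 and 11.91, and NANA, a chloroplast aspartic protease known to affect photosynthetic carbohydrate metabolism, from 8.83 and 8.73 to 9.85 and 10.35. AT2G39710, another aspartic protease gene, had the smallest difference at 1.17. In seedlings AT5G48430 was higher on both estradiol arrays (8.81 and 9.36) than on both mock arrays (8.64 and 8.55), a change of 0.49 ± 0.30 that did not pass and ran from 0.22 to 0.77 without 1 array, and the other 3 lay between -0.0048 and 0.07.

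Genes linked to ubiquitin gave 6 members, and they divided in seedlings. AT5G24870, a RING-type protein gene of the kind that includes ubiquitin ligases, went from 7.96 and 7.83 to 10.12 and 9.90 (4.34-fold) in protoplasts. AT5G10650, another RING-type gene, went from 7.62 and 7.19 to 9.19 and 9.08, and AT3G23605, whose UBX domain is a docking module for the segregase CDC48, from 8.46 and 8.90 to 10.12 and 10.50. AT4G38930, of the UFD1 family that also works with CDC48, was higher by 1.36, the OTU-type deubiquitinating protease gene AT3G57810 by 1.48 and the BTB/POZ gene AT1G21780 by 1.48. In seedlings both estradiol arrays of AT5G10650 (6.78 and 6.84) lay below both mock arrays (7.31 and 7.31), and the same held for AT3G23605 (9.35 and 8.55 against 9.64 and 9.94). Their changes were -0.50 ± 0.16 and -0.84 ± 0.31, neither of which passed, and the latter came mostly from pair 2, running from -1.24 to -0.44 without 1 array. AT5G24870 was higher at 0.25 ± 0.14, with both estradiol arrays above both mock arrays.

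In a list of 75 ubiquitin and proteasome genes, 14 were tested, none is a member, and none passed in protoplasts. The largest differences were those of UBC32, an endoplasmic reticulum ubiquitin-conjugating enzyme, at 0.81 ± 0.21 (adjusted p = 0.129) and of UBP22, a deubiquitinating enzyme of the SAGA complex, at 0.66 ± 0.18 (adjusted p = 0.146). PUB23, a U-box ligase that dampens immune signalling, was lower at -0.36 ± 0.28 and UBP25 differed by 0.15 ± 0.12, a sign that turned under median centring.

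Membrane traffic had 3 members with differences of modest size, namely AT1G55690, a SEC14-type lipid transfer protein (1.24), AT4G28550, a TBC domain activator of RAB GTPases (1.21), and AT4G17790, a SNARE-associated Golgi protein (1.20). AT4G28550 went from 8.74 and 8.39 in WT to 9.79 and 9.74 with 35S:ORE1. In seedlings AT1G55690 lay at 7.24 and 7.20 with mock and at 7.56 and 7.83 with estradiol. Those arrays did not overlap, and the change of 0.48 ± 0.23 did not pass, while the other two changed by 0.00022 and -0.01. From 76 traffic genes in a list only 4 were tested, and ARA6 (0.18 ± 0.14), VPS2.1 (0.14 ± 0.13), AT3G63460 (0.08 ± 0.13) and SEC22 (0.04 ± 0.19) did not pass in protoplasts, and the sign turned under median centring for all of them but ARA6.

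Hydrolases of sugars, lipids and phosphate esters gave 7 members. The vacuolar invertase gene AT1G62660, whose product splits stored sucrose, lay at 9.26 and 8.56 on the WT arrays and at 11.68 and 11.05 with 35S:ORE1. Replicate 1 was higher than replicate 2 in both groups, while the pair differences were close at 2.42 and 2.49, with a mean of 2.46 (5.49-fold). AMY1, a secreted alpha-amylase known from senescing leaves, went from 7.85 and 8.04 to 8.98 and 9.12 (2.15-fold). The acid phosphatase gene AT5G51260 was higher by 1.63, the alpha/beta hydrolase gene AT5G51180 by 1.55, the GDSL-type lipase gene AT5G55050 by 1.45, the inositol monophosphatase family gene AT5G63990 by 1.30 and the phosphodiesterase gene AT1G49740 by 1.23. In seedlings 4 of the 7 had a higher mean, a share near the 54.1% of all tested probe sets, and the estradiol arrays lay above the mock arrays for 2, where 18.6% of all tested did. The invertase gene was at 9.47 and 9.73 with mock and 9.27 and 9.60 with estradiol, a change of -0.16 ± 0.31.

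Stress-protective and senescence-linked genes gave 10 members. GSTU22, a glutathione transferase of the tau class that takes part in detoxification, was at 8.01 and 8.04 in WT protoplasts and at 10.75 and 10.58 with 35S:ORE1. Each group was tight, and the difference of 2.64 (6.24-fold) was the largest of the group. AtS40-3, of a small family of senescence regulators, went from 8.68 and 9.20 to 10.89 and 10.95, and the dehydrin gene AT1G54410 from 7.80 and 8.15 to 10.12 and 10.17. MT1C, a metallothionein, was the most abundant member by signal at 13.35 and 14.44 in WT and 15.32 and 16.18 with 35S:ORE1. The first of these is the highest value on its array, and the highest on the other was 16.39, and whether the top of the measured range limits the difference was not tested. The others were AT2G24040 of the RCI2 membrane protein type (1.73), the late embryogenesis abundant gene AT2G03850 (1.67), the universal stress protein genes AT5G47740 (1.61) and AT3G53990 (1.21), AT3G51250, which is related to senescence and dehydration proteins (1.38), and the ERD4-type membrane protein gene AT1G32090 (1.30).

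In seedlings these 10 went both ways, and 7 of them had a higher mean, against 54.1% of all tested probe sets. Both estradiol arrays lay above both mock arrays for 5 of the 10 and below for 2, against 18.6% and 13.9% of all tested. MT1C lay at 11.28 and 11.48 with mock and at 12.11 and 12.36 with estradiol, and both pairs gave nearly the same step (0.83 and 0.88). Its change of 0.86 ± 0.42 did not pass, and its protoplast replicates, which enter the same estimate of the spread, lay farther apart than its seedling replicates. GSTU22 went from 7.53 and 7.20 to 8.01 and 7.83, a change of 0.55 ± 0.16. AT3G53990 lay below both mock arrays on both estradiol arrays (10.77 and 10.80 against 11.01 and 11.24), as did AT1G54410 (11.33 and 11.20 against 11.66 and 11.36), with changes of -0.34 ± 0.13 and -0.25 ± 0.17 that did not pass. The probe set 246481_s_at is not one of the 10, as it stands for KIN1 and KIN2 together and so names neither cold-responsive gene. It was higher by 2.65 in protoplasts and had a seedling change of -0.55 ± 0.31.

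Signalling and transcription contributed 7 members, and 6 of these had a higher mean in seedlings (54.1% of all tested probe sets did). AT2G40110, of the zinc-binding Yippee family, showed the largest protoplast difference of any member with a listed gene, from 7.95 and 7.58 to 11.03 and 10.52, a difference of 3.01 or 8.03-fold. The protein kinase gene AT3G28690 went from 8.07 and 8.23 to 10.18 and 10.43, and AT2G28200, a C2H2 zinc finger transcription factor gene, from 7.81 and 7.58 to 9.52 and 9.30. The TIR-NBS-LRR gene AT5G58120, of the immune receptor type, was higher by 1.72, the PP2C phosphatase gene AT1G34750 by 1.71, the EF-hand calcium-binding protein gene AT4G26470 by 1.55 and the protein kinase gene AT4G32250 by 1.26. In seedlings AT2G28200 lay at 6.03 and 5.83 with mock and at 6.57 and 6.50 with estradiol. The groups did not overlap, and the change of 0.61 ± 0.15 had a limma adjusted p of 0.852. AT3G28690 changed by 0.43 ± 0.29 and AT4G32250 by 0.38 ± 0.19, and neither passed. Without 1 array these changes ran from 0.10 to 0.77 and from 0.17 to 0.59. The change of AT2G28200 ran from 0.50 to 0.71.

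The remaining genes with a role were mixed. In redox and transport, AT1G18980, a germin-like protein gene, was higher by 1.64, AT3G25290 of the cytochrome b561 type by 1.39, the major facilitator gene AT1G22570 by 1.17 and AT1G26390, a berberine bridge enzyme-like oxidase gene, by 1.15. AT2G05910, of the LURP-one type, went from 7.92 and 8.29 to 10.67 and 11.14 (6.97-fold), and AT1G02470, with a START-like lipid-binding fold, from 10.60 and 10.88 to 12.28 and 12.67 (3.33-fold). The DUF538 gene AT1G55265 (2.14), the FKBP-type isomerase gene AT1G73655 (1.77), the RCC1 repeat gene AT3G26100 (1.74), the acetyltransferase gene AT5G16800 (1.32) and the SUI1-type initiation factor gene AT1G54290 (1.21) complete them. Among the 22 genes without a role the differences were led by AT3G61930 (2.72), and 18 of the 22 had a higher mean in seedlings, with a median of 0.26, against 54.1% and 0.02 over all tested. Over the groups with a named role, the seedling median ran from -0.02 for the ubiquitin genes to 0.35 for signalling and transcription, and with 3 to 10 members in each these medians carry no test.

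**Figure D3:**
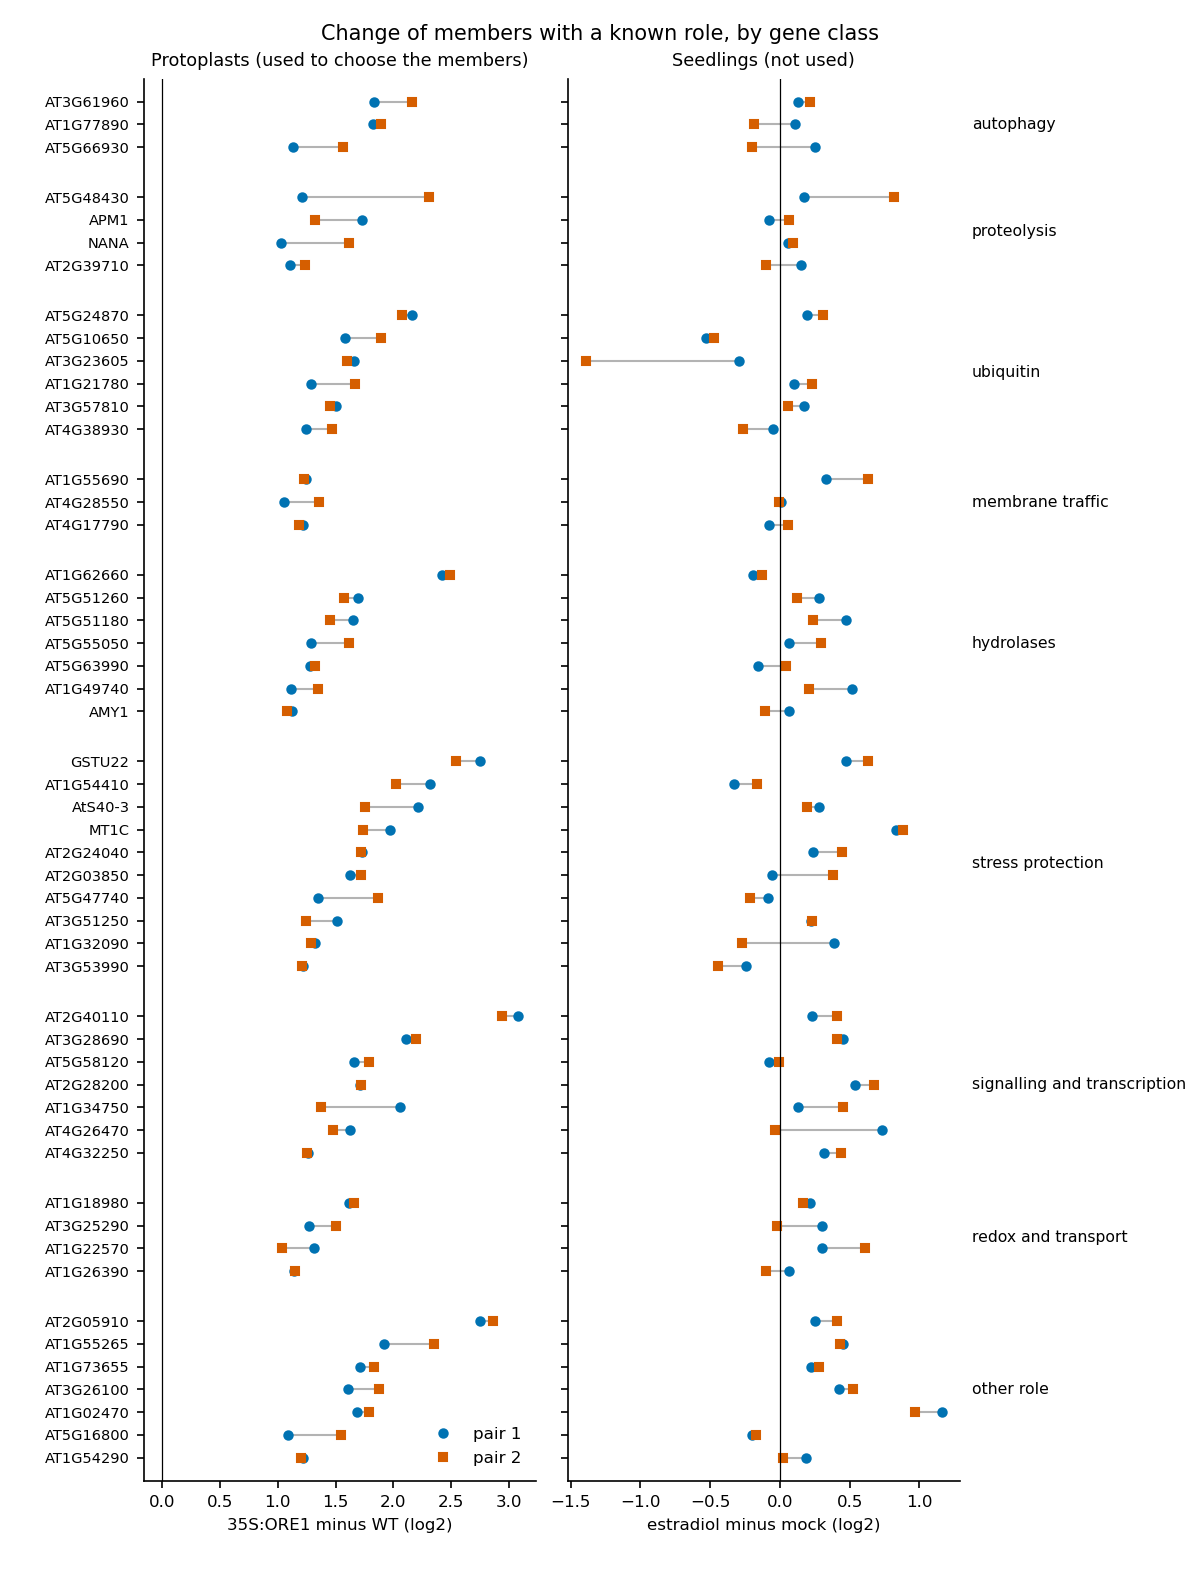
Difference in each same-numbered pair (log2, circles for pair 1 and squares for pair 2, joined by a line) for the 51 members with a role, in protoplasts (left, 35S:ORE1 minus WT) and seedlings (right, estradiol minus mock). All points on the left lie above 1 by the rule, whereas on the right most lie within 0.5 of 0, with MT1C and AT1G02470 high and AT3G23605 low.

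The members with the largest seedling statistics were led by AT1G02470 among listed genes. Its seedling values were 8.70 and 8.90 with mock and 9.87 and 9.87 with estradiol. Both estradiol arrays thus lay about 1 above both mock arrays, a change of 1.06 ± 0.18 (limma adjusted p = 0.475). After AT2G28200 and GSTU22 came AT3G26100 (0.47 ± 0.16), AT1G22570 (0.46 ± 0.19), AT1G69680 (0.66 ± 0.29), AT3G61930 (0.31 ± 0.14), AT5G23390 (0.38 ± 0.18), MT1C and AT1G55690, none past the threshold. All had non-overlapping arrays, against 18.6% of all tested probe sets, but they were ranked on the same arrays and nothing is read from that. Downward, AT5G10650, AT3G23605, AT3G53990 and AT1G54410 were followed by AT1G69030 (-0.16 ± 0.12), whose arrays did not overlap, and AT5G24570 (-0.16 ± 0.14), whose arrays did.

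**Figure D4:**
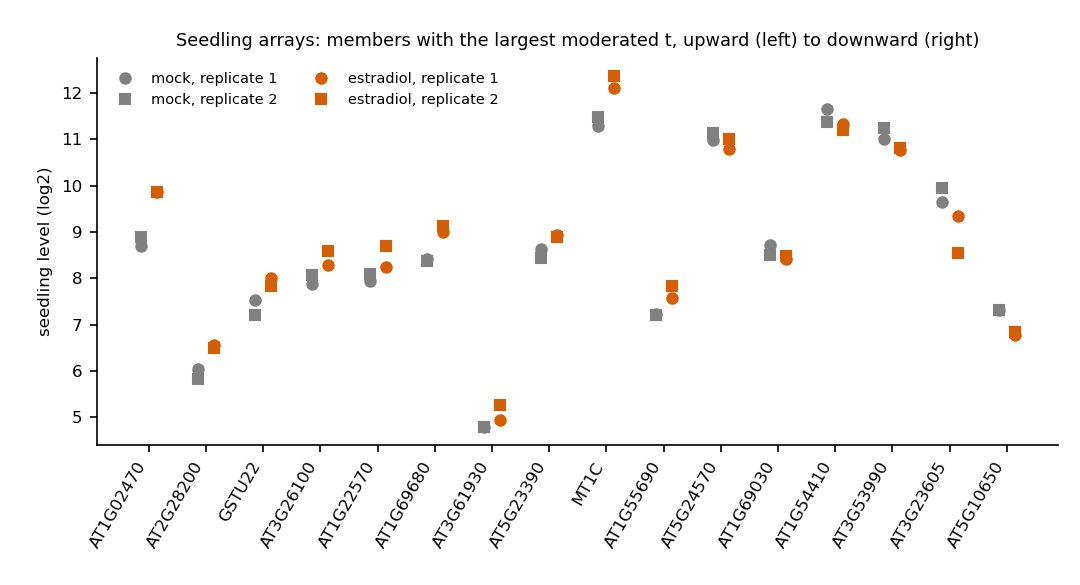
Log2 level on each of the 4 seedling arrays (grey for mock, orange for estradiol, circles for replicate 1 and squares for replicate 2) for the 10 listed members with the largest upward and the 6 with the largest downward moderated t. AT1G02470 goes from 8.70 and 8.90 with mock to 9.87 on both estradiol arrays, and none of the 16 changes passed the test over all probe sets.

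Among the 75 unlisted members the largest protoplast differences were those of 249187_at, from 8.07 and 8.09 to 11.46 and 11.82 (11.8-fold), and 245790_at, from 7.60 and 7.90 to 10.81 and 11.36 (10.1-fold). In seedlings these changed by 0.01 ± 0.16 and -0.00086 ± 0.21. The largest seedling change of any member was that of 249467_at, singled out after its values were seen, which lay at 8.00 and 8.91 with mock and at 12.01 and 12.18 with estradiol. The step was 3.65 ± 0.45 (limma adjusted p = 0.263, and 0.0263 to 1 over the alternatives), and in protoplasts it went from 11.31 and 11.22 to 13.91 and 15.14. The probe table lists no gene for it and none for ORE1, so whether it measures a responding gene or ORE1 itself was not tested. Without it the members' seedling median was again 0.17.

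The level in mock seedlings, which the rule did not use, varied widely among the members. By rank among all non-control probe sets their median percentile was 81.6 in WT protoplasts, where the rule set a minimum, and 71.8 in mock seedlings. For the other probe sets expressed in WT protoplasts, under the same minimum, these were 85.6 and 82.9, and the difference between the sets was not tested. In mock seedlings 27 of the 151 members lay in the lower 50%. AtS40-3 was at percentile 85.1 in WT protoplasts and 11.0 in mock seedlings, AT1G26390 at 93.1 and 25.5, AT3G61930 at 88.7 and 21.1, and AT5G47740 at 74.8 and 14.9. The reverse order was seen for AT5G24570, at 76.3 and 96.2, and for the dehydrin gene AT1G54410, at 77.7 and 97.5. Tissue, age, growth and processing all differ between these arrays and cannot be told apart. By position, AT3G61930 and the ATG1a gene AT3G61960 have 2 protein-coding genes between them in the TAIR10.1 gene table, and AT5G51180 and AT5G51260 have 7, the only neighbouring members within 10 genes among those with a locus.

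The pathway list genes matched by symbol gave no call outside the members. Entries without such a match, ATG1A among them, are not counted here. Over 6 lists with 347 entries, 52 genes were tested in protoplasts and none passed in limma, while 7 of the 52 were higher and 1 lower at a p under 0.05 without adjustment, where 6.57% and 5.68% of all 17388 tested probe sets were. Their median was 0.09, against 0 over all tested probe sets. In nitrogen and amino acid metabolism, AT4G33150, which encodes the lysine-degrading enzyme LKR/SDH, was higher at 0.75 ± 0.18 (adjusted p = 0.101) and IVD, of branched-chain amino acid breakdown, lower at -0.72 ± 0.20 (adjusted p = 0.149). DELTA-OAT, of arginine and proline metabolism, differed by 0.40 ± 0.15 and MCCB, of leucine breakdown, by -0.44 ± 0.22. In fatty acid breakdown OPCL1, of jasmonate synthesis, differed by -0.38 ± 0.17, the oil body lipase gene SDP1 by 0.35 ± 0.22, HPR of photorespiration by -0.26 ± 0.42 and AIM1 of beta-oxidation by -0.02 ± 0.19. Among 9 genes of secretory quality control, BZIP17 (0.11 ± 0.12), OS9 (0.27 ± 0.30), CRT1b (0.13 ± 0.18) and BZIP28 (0.05 ± 0.10) had the largest statistics. Of these, BZIP17, CRT1b and BZIP28 turned sign under median centring, and AIM1 under quantile normalization. OS9 had exactly equal values on both arrays of protoplast pair 1 and differed by 0.54 in pair 2. Other list genes, such as SEC22 and AT3G63460, were also exactly equal in pair 1. What such ties do to the list results was not tested. In seedlings no list gene passed, and the list medians lay between -0.05 and 0.09.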

How the data were processed

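The authors deposited log2 expression values, with 1 column per array. Per the submitters' processing notes GCRMA and RMA were used, without versions or a statement of which arrays each served. Within each same-numbered protoplast pair the lowest value is common to both arrays (2.19, 2.18) and 13500 and 11130 probe sets have exactly equal values. These ties are not confined to the lowest values, near which 41.6% of probe sets lay on WT replicate 1. In pair 1, SEC22 lay at 10.10 and AT3G63460 at 8.81 on both arrays. Such ties enter the median protoplast change of 0 over all tested probe sets, and their effect on the spread was not tested. Genes came from the supplied table of probe genes, updated with TAIR10.1 loci. The file holds 22810 probe sets with 64 controls, and 13513 have 1 symbol, 13436 of these a locus, 503 have several and 8730 others are unlisted.

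Non-control probe sets at log2 5 or more on at least 2 arrays (17388) entered a limma 3.58.1 fit under R 4.3.3 (lmFit, eBayes, two-sided, Benjamini-Hochberg over all tested). All 4 groups entered 1 model of group means without a block, with 4 residual degrees of freedom and 2.25 from the prior, so all arrays share the spread. The code was tested on simulated data. With 2 arrays against 2, the smallest two-sided p of an exact permutation test is 0.333, so none is given.

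The members and lists were chosen with earlier results of these data known. Planned classes by product text could be applied to 4 of 73 genes, as the table holds few product names, so classes were assigned by hand. Named genes are, per planned class, up to 4 members with the largest smaller pair difference, the 10 upward and 6 downward listed members by seedling moderated t, the 3 probe sets nearest each side of both thresholds, 4 genes per pathway list by protoplast t and the 2 most raised unlisted members. Genes with a role and 249467_at were named after their values were seen. The marker symbol FDH was left out, as the table gives it to another gene, and epidermis, vasculature and myrosin cell markers had no listed probe set. Promoter sequences were not used here.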

Additional observations from a re-analysis of the deposited data

Results flagged for a closer look

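The members were higher with 35S:ORE1 in protoplasts by the rule, and 22 of 151 (14.6%, against 27.2% of all tested probe sets) had a lower value with estradiol in both seedling pairs. The named ones among them, with the mean seedling change (log2) and its SE, were AT1G62660 (-0.16 ± 0.31), AT5G10650 (-0.50 ± 0.16), AT3G23605 (-0.84 ± 0.31), AT3G53990 (-0.34 ± 0.13), AT1G54410 (-0.25 ± 0.17), AT1G69030 (-0.16 ± 0.12), AT5G24570 (-0.16 ± 0.14), AT4G38930 (-0.16 ± 0.14), AT5G47740 (-0.15 ± 0.19), AT5G58120 (-0.044 ± 0.20) and AT5G16800 (-0.19 ± 0.19). None of these changes passed, and those of AT5G58120 (-0.14 to 0.053) and AT1G62660 (-0.33 to 0.0015) turned sign without 1 array, so a difference in direction between the systems is not shown.

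For further named members a large value of the seedling minus the protoplast change stood out. It was -1.13 for AMY1, -2.47 for AT2G05910, -2.42 for AT3G61930, -2.09 for GSTU22, -3.55 for 249187_at, -3.33 for 245790_at, -1.90 for AT1G77890, -1.86 for AT5G24870, -1.36 for AT3G57810, -1.21 for AT4G17790, -1.43 for AT5G51260, -1.75 for AtS40-3 and -1.45 for AT1G18980 on the log2 scale. The rule required a protoplast difference of at least 1 in both pairs, which largely sets the sign and size of these values, so they are given as a description and no test of them is read. For the same reason nothing is read from the 50 of 151 members called lower in seedlings than in protoplasts (33.1%, against 1.46% of all tested). The systems differ in tissue, age, time, means of ORE1 expression and array processing, which cannot be told apart.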

How the results depend on the processing

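The number of members, 151, was 124 with each array centred on its median (119 shared), 147 with quantile normalization over all 8 arrays (117 shared), 202 and 89 with a WT threshold of 6 and 8, 207 and 63 with a difference threshold of 0.8 and 1.5, and 195 to 197 from 1 replicate pair alone. The members' protoplast median of 1.53 became 1.35 with median centring and 1.30 with quantile normalization over all arrays. In seedlings the count of 0 called members held except with quantile normalization over all 8 arrays, where 249467_at was called, 1 member (4.30, limma adjusted p = 0.0263, range over its alternatives 0.0263 to 1). The seedling median stayed between 0.14 and 0.20 under every scaling, filter and fit tried, but only the scalings could move it. Without 1 array it ran from 0.11 to 0.23. The share with a higher mean was 70.9% after median centring, when all tested gave 47.8%. It was 65.6% to 75.5% without 1 array, and at most 72.2% without 1 seedling array. The filters, the intensity trend, the replicate block, fits on 1 system and leaving out a protoplast array cannot change the members' seedling differences. The median of 0.17 and share of 75.5% under these settings were fixed in advance, so no stability is read from them. With the replicate block no member was called. Same-numbered arrays deviated together (r = 0.656 in seedlings, 0.787 in protoplasts), but the labels do not say what a number marks. Probe sets with exactly equal values within a protoplast pair enter the protoplast r, and their share in it was not tested. Pathway list genes called in protoplasts, 0 in the fit as reported, were 2 with the replicate block (ATG8C and APG8H), 1, ATG8C, with a filter at log2 6, with quantile normalization within each system and with an intensity trend, and 0 to 2 without 1 array (ATG8C and MCCA without 35S:ORE1 replicate 1). Fits on the arrays of 1 system called none. These counts cover only the list genes matched by symbol. With each array centred on its median the sign turned for AT5G66930 -0.0036, 249187_at -0.020, AT2G39710 -0.0044, AT4G28550 -0.027, BZIP17 -0.061, AT3G63460 -0.096, UBP25 -0.025, BZIP28 -0.12, CRT1b -0.039, SEC22 -0.14 and VPS2.1 -0.035. With quantile normalization over all 8 arrays the sign turned for APM1 0.0093, 249187_at -0.00087, AT4G28550 -0.016 and AIM1 0.030. With quantile normalization within each system the sign turned for APM1 0.0069, 249187_at -0.00051, AT4G28550 -0.023 and AIM1 0.029. Without 1 array the sign also turned for 245790_at (-0.059 to 0.057), 249187_at (-0.095 to 0.11), AIM1 (-0.24 to 0.19), AMY1 (-0.086 to 0.044), APM1 (-0.15 to 0.14), AT1G21780 (-0.0067 to 0.34), AT1G26390 (-0.15 to 0.11), AT1G32090 (-0.23 to 0.34), AT1G49740 (-0.067 to 0.79), AT1G54290 (-0.060 to 0.27), AT1G62660 (-0.33 to 0.0015), AT1G77890 (-0.18 to 0.10), AT2G03850 (-0.061 to 0.38), AT2G39710 (-0.28 to 0.32), AT2G40110 (-0.033 to 0.67), AT3G57810 (-0.0032 to 0.23), AT3G61960 (-0.047 to 0.39), AT3G63460 (-0.035 to 0.19), AT4G17790 (-0.13 to 0.10), AT4G28550 (-0.062 to 0.063), AT5G58120 (-0.14 to 0.053), AT5G63990 (-0.16 to 0.041), AT5G66930 (-0.14 to 0.18), HPR (-0.82 to 0.31) and SEC22 (-0.17 to 0.24). The cause was not tested for any of these, and none of them was called. With 2 arrays per group the smallest changes cannot be resolved, and large ones can also go without a call. The seedling change of 249467_at was 3.65, with a limma adjusted p of 0.263. A missing call in seedlings is therefore not read as no change.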
